A study of Mus musculus with 4 samples.

Results

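The genes described here encode the translation initiation factors (symbols beginning with Eif and a digit) and the translation elongation factors (symbols beginning with Eef and a digit) of the mouse, with the kinases, methyltransferases and binding proteins that carry such symbols. All protein-coding genes of GENCODE release M21 on the 19 autosomes whose symbol had this form were taken, which gave 65 of 20807 protein-coding autosomal genes. The question asked of each gene was whether a peak of open chromatin lay at its start, in how many of 4 libraries, how wide it was and where it sat.

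The libraries came from ATAC-seq, in which the Tn5 transposase inserts adapters into accessible DNA, so that reads pile up over open chromatin and are called as peaks. The cells were E14 mouse embryonic stem cells grown in serum with leukaemia inhibitory factor and infected with lentivirus carrying a control short hairpin RNA. The hairpin was directed against GFP in 1 library (shGFP) and against luciferase in 3 libraries (shLuc replicates 1, 2 and 3). In both groups infected cells were selected with puromycin at 2 µg/ml for 2 days and collected after 2 more days, and no gene of the mouse was targeted. The knockdown libraries of the study were not analysed here.

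Protein synthesis begins when eIF2 brings the initiator tRNA to the small ribosomal subunit, eIF3 and the eIF1 and eIF5 factors hold the complex on the messenger RNA, and the eIF4 factors bind its cap and unwind its leader. Elongation then runs through eEF1A, which delivers aminoacyl-tRNA, the eEF1B subunits, which reload eEF1A with GTP, and eEF2, which moves the ribosome by one codon. Most of these factors are housekeeping proteins needed in every dividing cell, but eEF1A2, eIF4E1B and some binding proteins are known for expression in a limited set of tissues.

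The start sequences of 8 genes are given first, because genes that resemble each other in base composition fell into opposite classes. Each run holds 150 bases before the start of the main transcript and 15 bases from it on, read 5′ to 3′ on the gene's strand from the GRCm38 reference genome, with every CG dinucleotide in capitals. Eef1g at chr19:8966891-8967055 (+ strand), Eif3l at chr15:79075029-79075193 (+ strand) and Eif4a1 at chr11:69672303-69672467 (- strand) had a peak in 4 of 4 libraries. Eef1a1 at chr9:78481710-78481874 (- strand) had one in 2.
Eef1g: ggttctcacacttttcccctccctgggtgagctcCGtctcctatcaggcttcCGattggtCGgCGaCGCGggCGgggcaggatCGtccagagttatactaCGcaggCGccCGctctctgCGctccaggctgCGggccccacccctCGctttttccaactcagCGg
Eif3l: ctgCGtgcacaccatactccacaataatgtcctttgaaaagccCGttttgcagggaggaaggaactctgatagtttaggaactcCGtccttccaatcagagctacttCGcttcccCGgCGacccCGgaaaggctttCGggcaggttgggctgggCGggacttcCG
Eif4a1: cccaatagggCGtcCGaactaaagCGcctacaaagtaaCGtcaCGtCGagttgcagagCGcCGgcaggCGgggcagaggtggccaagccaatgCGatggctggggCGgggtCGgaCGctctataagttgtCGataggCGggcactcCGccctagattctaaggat
Eef1a1: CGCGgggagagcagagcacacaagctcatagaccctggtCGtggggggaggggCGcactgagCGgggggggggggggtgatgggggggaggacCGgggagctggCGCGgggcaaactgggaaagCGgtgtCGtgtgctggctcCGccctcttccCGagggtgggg
The next sequences belong to genes with no promoter peak in any library: Eef2 at chr10:81176481-81176645 (+ strand), Eef1b2 at chr1:63176675-63176839 (+ strand), Eif4enif1 at chr11:3202513-3202677 (+ strand) and Eef1a2 at chr2:181157000-181157164 (- strand).
Eef2: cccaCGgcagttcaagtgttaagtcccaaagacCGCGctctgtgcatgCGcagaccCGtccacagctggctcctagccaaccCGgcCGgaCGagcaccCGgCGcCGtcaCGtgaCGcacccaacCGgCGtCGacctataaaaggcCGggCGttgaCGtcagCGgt
Eef1b2: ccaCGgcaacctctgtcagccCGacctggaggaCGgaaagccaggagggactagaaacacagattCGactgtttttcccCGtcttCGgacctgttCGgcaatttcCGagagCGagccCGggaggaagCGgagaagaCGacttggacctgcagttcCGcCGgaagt
Eif4enif1: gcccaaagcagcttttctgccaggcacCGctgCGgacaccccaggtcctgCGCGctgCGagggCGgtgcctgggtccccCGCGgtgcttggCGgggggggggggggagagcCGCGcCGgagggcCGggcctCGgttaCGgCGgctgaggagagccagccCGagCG
Eef1a2: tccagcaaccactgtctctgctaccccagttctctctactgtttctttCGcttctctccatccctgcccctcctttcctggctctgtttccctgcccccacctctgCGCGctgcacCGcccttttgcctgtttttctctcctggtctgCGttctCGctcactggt
Eef2 held 20 CG dinucleotides in these 165 bases, Eif4enif1 18 and Eef1b2 14, against 15 in Eef1g, 16 in Eif4a1 and 10 in Eif3l. Eef1a2, the form of eEF1A known from muscle and neurons, held 6.

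The peak lists differed in length, from 17860 peaks in shLuc replicate 1 to 31585 in replicate 3, 41401 in replicate 2 and 41943 in shGFP. The lists gave positions alone, with no height, read depth or probability, so a missing peak means only that none was called. With 1 library against 3, an exact permutation test of the groups cannot go below 0.25, and no test between shGFP and shLuc was made. Nothing in the labels ties the shLuc replicates to separate cultures, so the SD given with them may be technical. Markers of the cells gave no check of their identity: among 8 genes of embryonic stem cells, 1 had a promoter peak in all libraries (Zfp42), 2 in some and 5 in none, Pou5f1, Nanog and Sox2 among them. Among 7 markers of other cell types, 2 had one in all libraries (Col1a1 and Thy1), 1 in some and 4 in none.

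A promoter peak, meaning a peak within 1 kb of any annotated transcript start of the gene, was found in all 4 libraries for 46 of the 65 factor genes (70.8%), in 1 to 3 libraries for 13 (20.0%) and in no library for 6 (9.23%). Over all 20807 protein-coding genes the shares were 44.0%, 22.0% and 34.0%. By library, 56 factor genes had one in shGFP, 49 in shLuc replicate 1, 57 in replicate 2 and 52 in replicate 3. The corresponding shares were 86.2%, 75.4%, 87.7% and 80.0%, where all genes gave 61.9%, 48.4%, 61.5% and 56.3%. The mean over the shLuc replicates was 81.0% ± 6.22 (SD, n = 3) for the factor genes and 55.4% ± 6.60 for all genes. The shGFP value lay above that mean and inside the range of the shLuc replicates. The lowest share, for factor genes and for all genes, came from shLuc replicate 1, which also had the shortest list.

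Genes with CpG-rich starts gave a different background. A start was called CpG-rich when the 300 bases around it, 250 before and 50 after, held at least 55% G and C and a ratio of observed to expected CG dinucleotides of at least 0.6. Of the factor genes, 43 (66.2%) had such a start, against 40.6% of all genes. Of these 43 genes, 30 (69.8%) had a promoter peak in all libraries, 10 in some and 3 in none. The 8447 CpG-rich genes of the genome gave 71.0% in all, 24.0% in some and 5.07% in none. In shGFP the CpG-rich factor genes stood at 88.4%, and in shLuc replicates 1, 2 and 3 at 74.4%, 88.4% and 79.1%. All CpG-rich genes gave 90.7%, 77.2%, 90.3% and 84.4% in the same order. The means over the shLuc replicates were 80.6% ± 7.10 and 84.0% ± 6.54 (SD, n = 3), so with CpG-rich starts the factor genes were not above other genes.

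**Figure D1:**
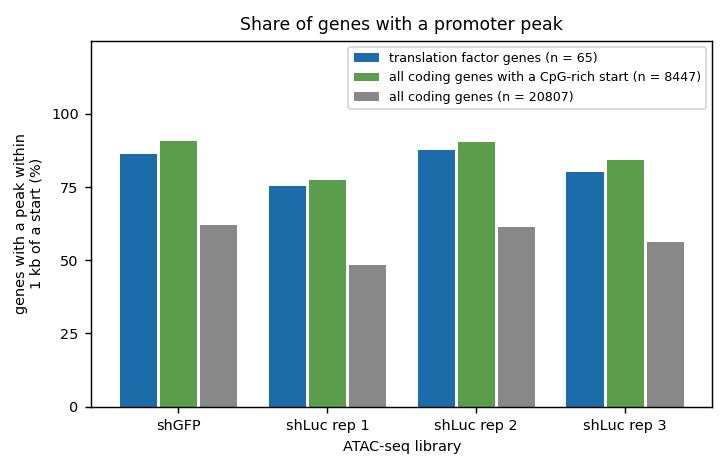
Share of genes (y axis, %) with a peak within 1 kb of a start in each of the 4 libraries (x axis), for the 65 translation factor genes, all 8447 coding genes with a CpG-rich start and all 20807 coding genes. The factor genes stand above all genes in every library, by 24.2 points in shGFP, and below the CpG-rich genes in every library.

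The other 22 factor genes, with starts that were not CpG-rich, were above the genome. Of these, 16 (72.7%) had a promoter peak in all libraries, against 25.5% of the 12360 genes whose start was not CpG-rich. The 2 sets differed in make-up. An observed to expected ratio of at least 0.6 was held by 9 of the 22 factor genes and by 1537 of the 12360 genes. With that ratio, 8 of the 9 factor genes (88.9%) had a peak in all libraries, against 62.1% of the 1537 genes. Among 13 factor genes with an observed to expected ratio under 0.6, 8 (61.5%) had a peak in all libraries, 2 in some and 3 in none. Over the 10823 genes of the genome below that ratio, 20.3% had one in all libraries, 19.7% in some and 60.0% in none. By library, the 13 factor genes stood at 69.2% in shGFP and at 61.5%, 76.9% and 76.9% in shLuc replicates 1, 2 and 3. The genes of the genome below that ratio gave 36.1%, 23.0%, 35.8% and 31.3%. Eif4e (ratio 0.457), Eif2b5 (0.411), Eef1akmt3 (0.427), Eef1akmt2 (0.433) and Eef1akmt1 (0.557) were among the 8 with a ratio under 0.6. The ratio of Eif4e was taken at its main start, and its peaks began 184 to 462 bp downstream of that start, at another one. In the plot of CpG ratio against GC content the 6 genes without promoter peaks lie at both ends.

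**Figure D2:**
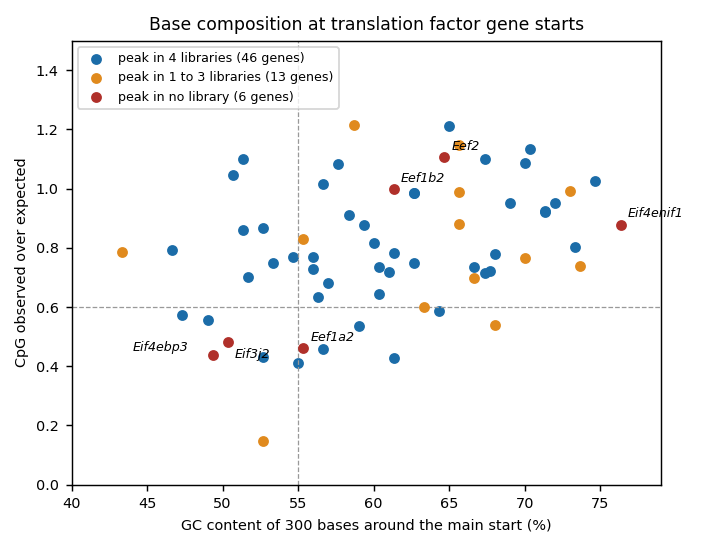
Ratio of observed to expected CG dinucleotides (y axis) against GC content (x axis, %) in 300 bases around the main start of the 65 genes, coloured by the number of libraries with a promoter peak. Dashed lines mark the limits of 0.6 and 55%. Eef2, Eef1b2 and Eif4enif1 lie above both limits, and Eif3j2 and Eif4ebp3 below both.

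By role, the classes ran from 4 of 4 genes with a peak in all libraries to 1 of 4. All 4 eIF2α kinases, 6 of 7 subunits of eIF2 and eIF2B and 12 of 14 eIF3 genes had a promoter peak in all libraries. So did 9 of 12 cap-binding and helicase genes, 5 of 6 genes for the kinase and methyltransferases of the elongation factors, and 5 of 9 genes for start selection and subunit joining. Of the elongation factors, 4 of 9 genes (44.4%) had one in all libraries, 2 (22.2%) in some and 3 (33.3%) in none, close to the 44.0%, 22.0% and 34.0% of all coding genes. All of these 9 but Eef1a2 and Eif5a had CpG-rich starts. Over all coding genes with such starts the shares were 71.0%, 24.0% and 5.07%. The eIF4E-binding proteins gave 1 of 4 in all, 1 in some and 2 in none. These groups are small, and the genes of a group share no design by which they could stand for replicates.

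**Figure D3:**
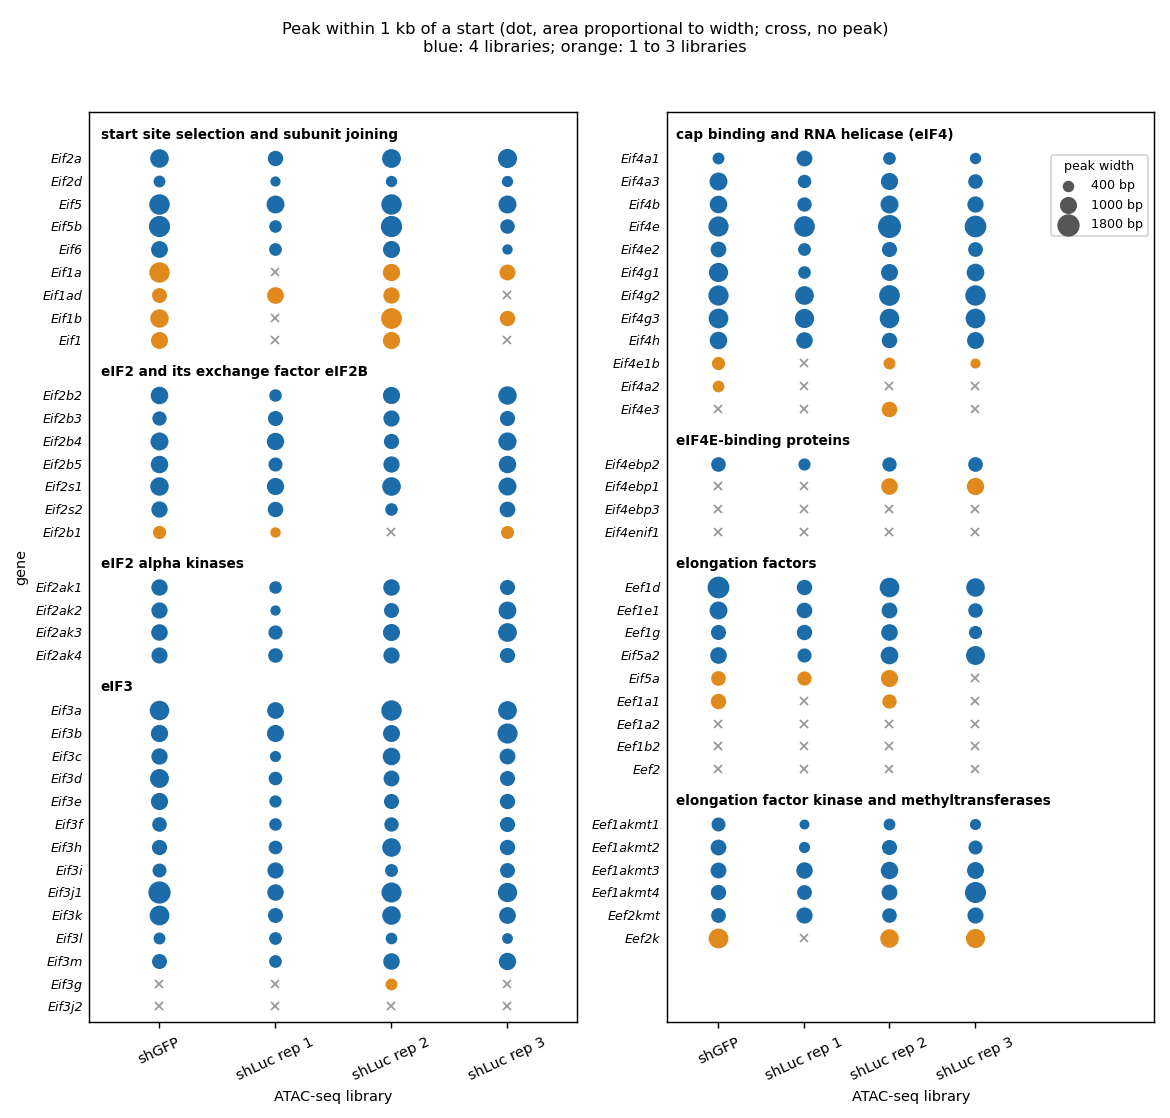
Promoter peaks of the 65 factor genes (y axis, by role) in the 4 libraries (x axis). A dot is a peak, with its area in proportion to peak width (bp), blue for genes with a peak in 4 libraries and orange for 1 to 3 libraries, and a cross is a library without a promoter peak. Crosses gather among the elongation factors and the eIF4E-binding proteins, where 5 genes have crosses in all 4 libraries.

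In the sentences that follow, a width is the length of the called peak, and an offset is the distance from its centre to the nearest annotated start, upstream or downstream in the direction of transcription. Widest and narrowest are taken, within each role, over the genes with a promoter peak in all libraries. Where a library had no promoter peak, the distance to the nearest peak runs from its edge to the closest annotated start of the gene. Of the genes for start selection and subunit joining, Eif2a, Eif2d, Eif5, Eif5b and Eif6 had a promoter peak in all libraries. Eif2a, despite its name, is not a subunit of eIF2. Eif5, whose product makes eIF2 hydrolyse its GTP at the start codon, had the widest by median. Its peak measured 1500 bp in shGFP, 1116 bp in shLuc replicate 1, 1491 bp in replicate 2 and 1126 bp in replicate 3. The centre lay 2, 154 and 30 bp downstream in the first 3 of these and 34 bp upstream in the last. Eif2d, which can place tRNA on the ribosome without eIF2, had the narrowest, at 430, 303, 388 and 381 bp in the same order of libraries, with its centre 66, 82, 96 and 99 bp downstream. Each Eif5 peak was wider than the Eif2d peak of the same library. Eif6, whose product keeps the large subunit from joining too early, was wide in shGFP and shLuc replicate 2 (970 and 997 bp) and narrow in replicates 1 and 3 (513 and 314 bp). Its centres lay 66 bp downstream and 12, 68 and 20 bp upstream, in library order.

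Eif5b, which joins the subunits, was called in different pieces across the libraries. A single peak of 1609 bp in shGFP and 1625 bp in shLuc replicate 2 covered the start, with centres 289 and 277 bp upstream. In replicate 3 the same stretch was called as 2 peaks, 665 bp wide at 450 bp from the start and 698 bp wide over it, with the centre of the latter 42 bp downstream. In replicate 1 only the upstream stretch was called, 498 bp wide, ending 574 bp from the start. It covered a start of the neighbouring coding gene Txndc9 and none of Eif5b, so Eif5b counted in replicate 1 through that peak. The peaks assigned to Eif5b in the other libraries, which covered its start, also covered a start of Txndc9. These 498 bp were covered in all 4 libraries.

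The other genes of this group lacked a promoter peak in 1 or 2 libraries. Eif1, which keeps the initiator tRNA from settling on wrong codons, had a peak of 986 bp in shGFP and 1017 bp in shLuc replicate 2, centred 72 and 49 bp upstream, and none in replicates 1 and 3, where the nearest peaks lay 37727 and 21097 bp away. Its paralog Eif1b had peaks of 1190, 1551 and 788 bp in shGFP and shLuc replicates 2 and 3, centred 118, 20 and 24 bp downstream. Eif1a had peaks of 1496, 1030 and 857 bp in the same 3 libraries, at 38 bp downstream, 384 bp upstream and 21 bp upstream. Both were missing in shLuc replicate 1 alone, the pattern of 9.68% of all coding genes and 4 factor genes (6.15%), and their nearest peaks there lay 78702 and 71386 bp away. Eif1ad was missing in replicate 3, with 745 bp in shGFP and 952 and 907 bp in replicates 1 and 2, centred 128 bp upstream, 2 bp downstream and 41 bp upstream.

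All peaks of the 4 eIF2α kinase genes that respond to haem loss, viral RNA, unfolded protein and amino acid loss, Eif2ak1, Eif2ak2, Eif2ak3 and Eif2ak4, were called in every library. Eif2ak3 had the widest, at 934, 657, 1002 and 1230 bp in shGFP and shLuc replicates 1, 2 and 3, centred 26 bp downstream, 55 bp upstream, 76 bp downstream and 94 bp upstream. Eif2ak2, the kinase of the response to double-stranded RNA, had the narrowest by median, at 894, 308, 744 and 1101 bp, and its widest peak was 3.57 times its narrowest, the highest such ratio of the 46 genes. Its centres lay 146, 162 and 66 bp upstream and 43 bp downstream. The shLuc replicate 1 peak of Eif2ak2 ended 8 bp short of the start.

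Of eIF2 and its exchange factor eIF2B, Eif2s1, Eif2s2, Eif2b2, Eif2b3, Eif2b4 and Eif2b5 had a promoter peak in all libraries. Eif2s1, the α subunit that the kinases phosphorylate, had the widest by median, at 1195, 1020, 1214 and 1127 bp, centred 124, 30, 142 and 96 bp upstream. Its widest peak was 1.19 times its narrowest, and 1005 bp were common to all libraries. Among these 6, Eif2b3 had the narrowest by median, at 671, 754, 888 and 765 bp, centred 26, 62, 130 and 78 bp downstream. Eif2b5, the catalytic subunit of eIF2B, measured 1055, 643, 895 and 1054 bp and was also centred downstream, by 258, 51, 128 and 206 bp. Eif2b1 had peaks of 556 bp in shGFP and 321 and 541 bp in shLuc replicates 1 and 3, centred 24 bp downstream, 63 bp upstream and 10 bp downstream. It was the only factor gene missing in replicate 2 alone, a pattern of 0.418% of all genes, and the nearest peak there lay 9421 bp away.

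Of the 14 eIF3 genes, Eif3a, Eif3b, Eif3c, Eif3d, Eif3e, Eif3f, Eif3h, Eif3i, Eif3j1, Eif3k, Eif3l and Eif3m had a promoter peak in all libraries. Eif3a, the largest subunit, measured 1345, 957, 1487 and 1236 bp, centred 37 and 74 bp downstream, 106 bp upstream and 92 bp downstream. Eif3j1 had the widest of the group by median, at 1791, 918, 1435 and 1319 bp, centred 53, 34 and 132 bp upstream and 17 bp downstream. Its shGFP peak was 1.95 times as wide as the one in shLuc replicate 1. Eif3l had the narrowest, at 436, 512, 412 and 345 bp, and the centres lay 4, 20, 2 and 2 bp upstream of the nearest start. In all libraries the Eif3l peak covered the main start, whose sequence is printed above. Eif3g, the RNA-binding subunit that works during scanning, had a peak in shLuc replicate 2 alone, 432 bp wide and centred 2 bp downstream. Its nearest peaks in shGFP and shLuc replicates 1 and 3 lay 8240, 18244 and 8081 bp away. Eif3j2, the near copy of Eif3j1, had none, and the nearest peak lay 39356 to 39422 bp away in the 4 libraries. Of the words of 50 bases within 500 bp of its start, 22.9% occurred elsewhere in the genome, the highest share among the 65 genes, against 10.1% at Eif3j1. The part of such repeats in the missing peak was not tested.

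Of the cap-binding and helicase genes, Eif4a1, Eif4a3, Eif4b, Eif4e, Eif4e2, Eif4g1, Eif4g2, Eif4g3 and Eif4h had a promoter peak in all libraries. Eif4e, the protein that binds the cap, had the widest promoter peak of all 65 genes by median. It measured 1450, 1537, 1930 and 1694 bp, centred 70, 56 and 32 bp downstream and 12 bp upstream of the nearest start. That start was not the main one: the peaks began 462, 405, 184 and 248 bp downstream of the start of the main transcript. Eif4g1, the scaffold between the cap and eIF3, measured 1305, 503, 983 and 1083 bp, centred 7 bp upstream, 77 and 88 bp downstream and 143 bp upstream. Eif4a1, the helicase, had the narrowest of these 9 by median, at 433, 849, 506 and 395 bp, centred 42 bp upstream, 121 bp downstream and 36 and 78 bp upstream. It was widest in shLuc replicate 1, the library in which 32 of the 46 genes (69.6%) were narrowest.

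The other 3 genes of the group, all paralogs of Eif4a1 or Eif4e, had a peak in some libraries. Eif4a2, the second eIF4A helicase gene, had 1 peak, in shGFP, 419 bp wide, centred 194 bp upstream of an internal start, with its near edge 735 bp downstream of the main start. Its nearest peaks in shLuc replicates 1, 2 and 3 lay 16826, 3398 and 3018 bp away. Eif4e3 had 1 peak, in shLuc replicate 2, 810 bp wide and centred 6 bp downstream, and none within 25273 bp in the other libraries. Eif4e1b, the oocyte form of eIF4E, had peaks of 553, 435 and 292 bp in shGFP and shLuc replicates 2 and 3, all upstream, with centres 696, 665 and 602 bp away. They ended 420, 448 and 456 bp short of the start, and in replicate 1 the nearest peak lay 5029 bp away. Its start had the lowest CpG ratio of the 65 genes, 0.148. Over 13 pairs of paralogs, 4 pairs had promoter peaks in the same number of libraries, among them Eif4g1 with Eif4g2 and with Eif4g3. In these 4 pairs both genes had a peak in all libraries, the class of 70.8% of the factor genes. Eif4a1, Eif4e, Eif4g1 and Eif4ebp1 each entered more than 1 pair, and the share among unrelated pairs was not computed.

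The eIF4E-binding proteins hold eIF4E away from eIF4G when the mTOR kinase is inactive. Eif4ebp2, the only one with a peak in all libraries, measured 705, 464, 676 and 715 bp, centred 39, 90, 32 and 10 bp upstream. Eif4ebp1 had peaks in shLuc replicates 2 and 3, 945 and 1026 bp wide and centred 43 and 186 bp upstream, and the nearest peak lay 9170 bp away in shGFP and 15499 bp away in shLuc replicate 1. Eif4ebp3 had none, with the nearest peak 5888 to 5977 bp downstream in the 4 libraries, over the start of Sra1. Eif4enif1, which carries eIF4E into the nucleus, had none although its start was the richest of the 65 in G and C (76.3%), and the nearest peak lay 30012 to 30571 bp from its closest start and 56106 to 63453 bp from the main start.

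Of the elongation factors, Eef1d, Eef1e1, Eef1g and Eif5a2 had a promoter peak in all libraries. Eef1e1 carries the family's symbol but is known as a part of the complex of tRNA synthetases. Eef1d, a subunit of the exchange factor eEF1B, had the widest, at 1703, 799, 1363 and 1201 bp, centred 139, 70 and 239 bp upstream and 18 bp downstream. Eef1g, another subunit, had the narrowest by median of these 4 genes, at 755, 790, 944 and 553 bp, centred 34, 32, 128 and 163 bp upstream. Eef1b2, the remaining eEF1B subunit, had none: the nearest peaks lay 3490, 3653, 3486 and 3493 bp downstream of the nearest of its annotated starts in shGFP and shLuc replicates 1, 2 and 3, and 3888, 4051, 3884 and 3891 bp from the main start. A start of the gene lay within 1 kb of that of Ndufs1, a subunit of respiratory complex I, and no peak was called at that start either.

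Eef1a1, the main form of eEF1A, had peaks in 2 libraries. In shGFP a peak of 689 bp covered the main start, another of 795 bp covered a start farther upstream with its centre 198 bp downstream of it, and 1 of 410 bp lay 852 bp from that start. In shLuc replicate 2 a single peak of 669 bp ended 156 bp short of the main start, with its centre 490 bp upstream. In replicates 1 and 3 the nearest peaks lay 31023 and 14093 bp away. Eef1a2 had none, with the nearest peaks 2691, 62652, 2761 and 8807 bp away in shGFP and shLuc replicates 1, 2 and 3. No word of 50 bases within 500 bp of the main starts of Eef1a1 and Eef1a2 occurred elsewhere in the genome.

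Eef2, which moves the ribosome along, was the gene nearest to the limit of 1 kb. The nearest peaks began 1130 bp downstream of an annotated start inside the gene in shGFP, and 1546, 1218 and 1092 bp downstream of it in shLuc replicates 1, 2 and 3. From the main start, whose sequence is printed above, they lay 5550, 5966, 5638 and 5512 bp away. Each of these peaks, 1098, 626, 1002 and 1067 bp wide, covered the start of the neighbouring gene Dapk3, a kinase gene named here after its position was seen. Eef2 would count as having a promoter peak in a wider window through a peak at the start of another gene. Eif5a, which helps ribosomes through stretches of proline and was placed with the elongation factors for that role, had peaks of 710, 665 and 1006 bp in shGFP and shLuc replicates 1 and 2, centred 248, 210 and 54 bp upstream of the nearest start. In replicate 3 the nearest peak lay 3663 bp away. Its paralog Eif5a2 had a promoter peak in all libraries.

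**Figure D4:**
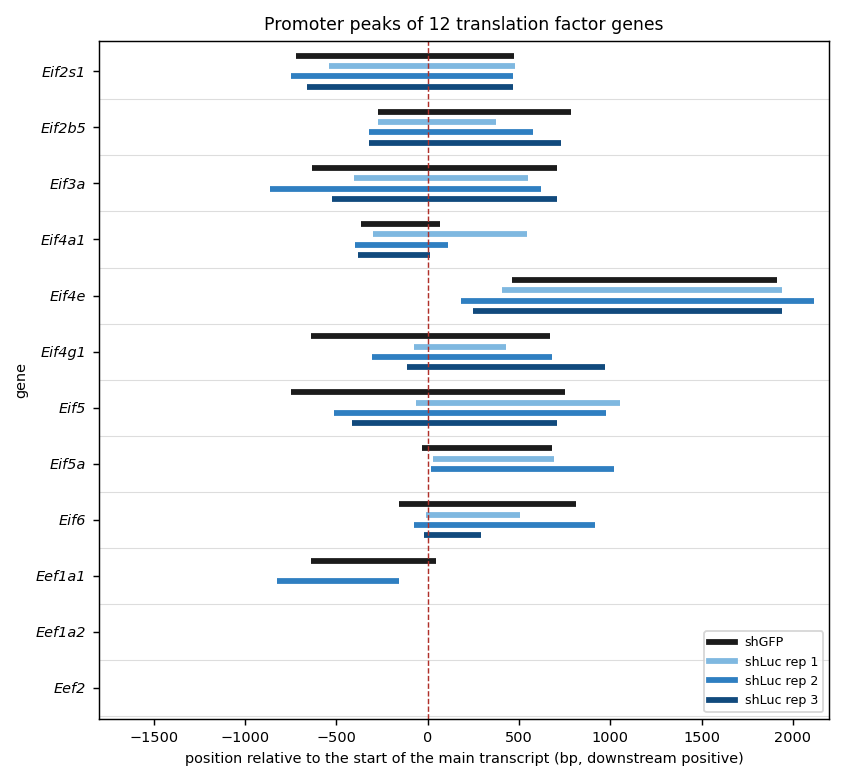
Span of each promoter peak relative to the start of the main transcript (x axis, bp, downstream to the right, dashed line at the start) for 12 factor genes (y axis) in shGFP and the shLuc replicates. The Eif2s1 peaks nearly coincide, the Eif4e peaks begin 184 to 462 bp downstream, and Eef1a2 and Eef2 have no peak within 1 kb of a start. The shGFP peaks of Eef1a1 at its upstream start fall outside the plot.

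Of the genes that modify elongation factors, Eef1akmt1, Eef1akmt2, Eef1akmt3, Eef1akmt4 and Eef2kmt, which methylate eEF1A and eEF2, had a promoter peak in all libraries. Among these 5, Eef1akmt3 had the widest by median, at 851, 918, 1051 and 981 bp, centred 320, 416, 423 and 250 bp upstream. Each of these peaks also covered a start of the neighbouring coding gene Mettl1. Eef1akmt1 had the narrowest, at 630, 285, 428 and 376 bp, centred 42 bp upstream and 126, 96 and 80 bp downstream. Eef2k, the kinase that turns eEF2 off, had peaks of 1393, 1201 and 1283 bp in shGFP and shLuc replicates 2 and 3, centred 270, 338 and 240 bp upstream of the nearest start, and none in replicate 1 within 25550 bp. In each of the 3 libraries Eef2k had another peak within 1 kb of a start inside the gene, 1101, 937 and 566 bp wide.

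Peak width differed more between libraries than between factor genes and all genes. The median over factor genes with a peak was 938 bp in shGFP, 675 bp in shLuc replicate 1, 944 bp in replicate 2 and 868 bp in replicate 3. Over all coding genes with a peak it was 969, 707, 934 and 899 bp. The shLuc mean was 829 ± 139 bp (SD, n = 3) for the factor genes and 847 ± 122 bp for all genes. Both sets come from the same libraries, so this SD is the spread between libraries and not that of the difference. The median of the factor genes was lower than that of all genes in shGFP and shLuc replicates 1 and 3 and higher in replicate 2. Of the 46 genes with a peak in all libraries, 32 were narrowest in shLuc replicate 1, against 74.0% of the 9150 coding genes of that kind. With 1 peak per gene and library, the one nearest to a start, 45 of the 46 had a stretch in common to the 4 libraries, of 604 bp in the median and from 251 bp at Eif2ak1 to 1450 bp at Eif4e. The exception was Eif5b, and with every peak within 1 kb counted all 46 had such a stretch. With 1 peak per library, such a stretch was found for 97.8% of the 46 and for 94.8% of the 9150 coding genes. Its median over the latter was 659 bp.

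**Figure D5:**
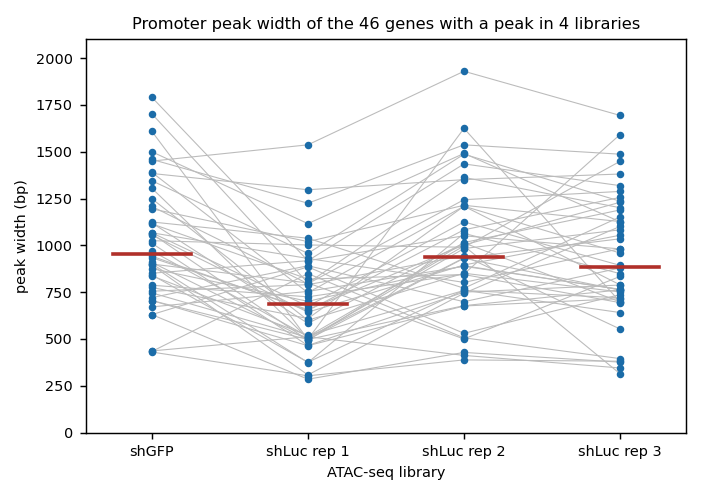
Width of the promoter peak (y axis, bp) in each library (x axis) for the 46 factor genes with a peak in all 4. Points are genes, grey lines join the same gene and red bars are medians. The median is lowest in shLuc replicate 1, at 688 bp, against 956 bp in shGFP.

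The peaks sat on the starts. In shGFP 98.2% of the promoter peaks of factor genes covered an annotated start, and in shLuc replicates 1, 2 and 3 95.9%, 96.5% and 98.1% did, with 93.0% to 94.7% over all coding genes and 96.6% to 98.2% over those with CpG-rich starts. The median distance from the centre to the nearest start was 66 bp in shGFP and 73.4 ± 15.1 bp in shLuc (SD, n = 3), against 102.5 bp and 96.5 ± 8.72 bp over all coding genes. Over coding genes with CpG-rich starts it was 91 bp and 88.9 ± 6.99 bp. Measured from the main start alone the median was 122 bp in shGFP and 116 ± 23.1 bp in shLuc. All coding genes gave 175 bp and 166 ± 13.4 bp, and those with CpG-rich starts 141.5 bp and 136 ± 9.83 bp. The centre lay upstream of the nearest start in 57.1% of the shGFP peaks and in 56.8% ± 3.38 of the shLuc peaks of factor genes. Over all coding genes the shares were 44.6% and 45.1% ± 0.452, and over those with CpG-rich starts 47.4% and 48.2% ± 0.498. Factor genes had a median of 4 annotated start positions, all genes 3 and those with CpG-rich starts 5. The part of the number of starts in these distances was not tested.

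A start of another coding gene lay within 1 kb for 15 of the 65 genes (23.1%), against 14.9% of all coding genes. Of these 15, 10 (66.7%) had a promoter peak in all libraries, 4 in some and 1, Eef1b2, in none, where 70.5% of all coding genes with such a neighbour had one in all libraries. Of the 50 with no such neighbour, 36 (72.0%) had one in all libraries, where 39.3% of all genes with no such neighbour did. The peaks described above for Eif2s1, Eif1a, Eif1ad, Eif2b1, Eif4e3, Eef1d and Eef1akmt3 also covered a start of the neighbouring gene. Their widths and offsets are therefore not those of the factor gene's start alone. A peak inside the gene but over 1 kb from each of its starts was found for 14 factor genes (21.5%) in shGFP, and for 4, 18 and 11 in shLuc replicates 1, 2 and 3 (6.15%, 27.7% and 16.9%). All coding genes gave 28.3%, 12.2%, 28.1% and 22.2%. Eif2b3, Eif2d, Eif4e2 and Eif4g3 had such a peak in all libraries (6.15% of factor genes), against 9.51% of all genes.

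Short motifs in the 300 bases around the main start were searched on both strands by exact letters. CCGGAAG, a core that ETS factors bind, was found at 19 of the 65 genes (29.2%), against 11.4% of all coding genes, and at 32.6% of the CpG-rich factor genes, against 19.2% of all CpG-rich genes. Of the sequences printed above, those of Eif3l and Eef1b2 have it in this window, the former from a gene with a peak in all libraries and the latter from a gene with none. GGGCGG, the GC box that SP1 binds, was found at 73.8% of factor genes and 46.1% of all genes, and at 83.7% and 80.0% of those with CpG-rich starts. CACGTG, the E-box of MYC and related factors, was found at 13.8% and 7.78%, Eef2 among the former. CCAAT was found at 29.2% and 38.2%, TATAAA at 6.15% and 12.7%, AAGATGG, the core of a YY1 site, at 9.23% and 6.38%, and GCATGCG, the core of an NRF1 site, at 6.15% and 4.46%. With CpG-rich starts CACGTG was found at 16.3% of factor genes and 11.6% of all genes, CCAAT at 25.6% and 35.7%, and TATAAA at 2.33% and 3.93%. For those starts AAGATGG gave 6.98% and 6.80%, and GCATGCG 6.98% and 7.27%. A main start on a C with 4 pyrimidines after it on the gene's strand, a loose form of the terminal oligopyrimidine tract known from messenger RNAs of the translation machinery, was found at 2 genes (3.08%), Eif2s1 and Eif3f, against 2.31% of all genes. A match is a run of letters and not a bound site, and annotated starts can be some bases away from those the cells use.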

How the data were processed

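ATAC-seq reads of the 4 control libraries were aligned by the authors to mm10 (GRCm38). The submitters' processing notes name bcl2fastq, Bowtie2 and MACS2, and the study's methods describe best alignments kept with random choice among equals and removal of mitochondrial reads. The calling threshold, the shift of reads for the Tn5 cut and the handling of replicates were not given in the sources used here. The deposited files are lists of peak positions per library in 3 columns, chromosome, start and end, with no height or depth, so the precision of a single peak is unknown. Starts were counted from 1, and transcript starts came from GENCODE M21. A gene was given, per library, the peak nearest to any of its starts within 1 kb, and the wider where gaps were equal. GC content, CpG ratio and motifs were computed in 300 bases around the start of the main transcript of the GRCm38 reference. Python 3.11.15, NumPy 2.4.6 and matplotlib 3.10.9 were used. The assignment of peaks was tested on simulated data. The members and lists were chosen with earlier results of these data known. Genes named with values in every library were those with a peak in 1 to 3 libraries, the widest and narrowest of each role, and 12 genes at fixed steps of translation. For genes without a promoter peak the distance to the nearest peak was given.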

Additional observations from a re-analysis of the deposited data

How the results depend on the processing

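Of 210 recomputed values, from 14 results under 15 alternatives, 168 stayed within the spread of the replicates or within 1.5 times the count, 39 moved (20 up and 19 down) and 3 reversed. Beside the CpG-rich genes, an alternative chosen after seeing the data, the factor genes' share minus that of all genes turned to -2.37 points in shGFP and -3.35 in shLuc, from 24.2 and 25.6, with counts of 30 genes in all libraries and 3 in none, and shares of all genes at 90.7% and 84.0%. Under the other alternatives the difference stayed positive. In shGFP it was 21.5 points within 5 kb, 26.0 with the start covered, 26.2 with starts of basic transcripts, 27.5 with the 5′ end of the gene only, 21.6 with the widest 50% of each list, 17.7 with as many of the widest peaks as the shortest list holds, 28.5 without genes that share a start region, 22.2 without genes over 50% repeated and 28.8 with the main start only (also chosen after seeing the data). In shLuc it was 27.4 with basic transcripts, 28.0 with the 5′ end, 20.4 with the widest 50%, 23.1 with lists of equal length, 29.8 without shared starts, 23.8 without repeats and 29.7 with the main start.

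Keeping only the widest peaks, which changes list length and the narrowest width kept together, moved the counts. With the widest 50% of each list, 24 factor genes (36.9%) had a promoter peak in all libraries, 28 in some and 13 (20.0%) in none. Of all genes 26.4% had one in all libraries and 41.6% in none. Shares were 73.8% in shGFP and 62.6% in shLuc (all genes 52.3% and 42.2%). With lists of equal length 22 factor genes had one in some libraries. The share in all libraries was 52.3%, against 32.8% of all genes, and the share in none 13.8% against 39.2%. Shares were 66.2% in shGFP and 70.8% in shLuc (all genes 48.4% and 47.7%). For the factor genes, shGFP minus shLuc reversed from 5.13 to -4.62 points. Within 5 kb 3 factor genes (4.62%) had no peak in any library, against 26.1% of all genes, and 69.3% of all genes had one in shGFP. The median distance to a start was 124 bp in shGFP and 115 bp in shLuc from the 5′ end, 122 bp and 116 bp from the main start, and 95.6 bp in shLuc with basic transcripts. With 1 shLuc replicate left out, shGFP minus shLuc ran from 2.31 points (without replicate 1) to 8.46 (without replicate 2), and the other values stayed within these limits. No paired analysis was possible because shGFP has 1 library and no result comes from a test. The lists hold no depth, so peaks below the calling threshold could not be told from closed chromatin.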

Other observations

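The rule kept to the autosomes, and 3 factor genes on the sex chromosomes were looked at beside it. Eif1ax, on chromosome X, had a promoter peak of 857 bp in shGFP and of 930 and 798 bp in shLuc replicates 2 and 3, and none in replicate 1, the pattern of its autosomal relative Eif1a. Eif2s3x, the X-linked gene for the γ subunit of eIF2, had peaks of 1348, 611, 1322 and 1250 bp in shGFP and shLuc replicates 1, 2 and 3, all centred upstream, by 192, 111, 174 and 186 bp. Its Y-linked counterpart Eif2s3y had none, and the nearest peaks lay 11081, 11030, 11006 and 11022 bp away.

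Many genes without a peak in every library had starts with a ratio of observed to expected CG dinucleotides above 0.6. They were Eef1a1, Eef1b2, Eef2, Eef2k, Eif1, Eif1a, Eif1ad, Eif1b, Eif2b1, Eif3g, Eif4a2, Eif4e3, Eif4enif1 and Eif5a. All of these but Eif5a were CpG-rich. Of the CpG-rich factor genes 23.3% had a peak in some libraries and 6.98% in none, against 24.0% and 5.07% of all CpG-rich genes. All of the named genes but Eif1 had no repeated words of 50 bases within 500 bp of the main start. In Eif1 the share of repeated words was 4.41%. Within 5 kb of a start Eef2, Eef1b2 and Eef1a2 counted as having a peak in at least 1 library, while Eif4enif1, Eif4ebp3 and Eif3j2 did not.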
